A study of Mus musculus with 16 samples.

Results

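Heat shock proteins and their DNAJ cochaperones were followed in the left ventricle and the subcutaneous white fat (scWAT) of mice whose HuR gene was to be deleted in adipocytes. The genes were taken by symbol: the Hspa, Hspb, Hsph, Hsp90, Dnaja, Dnajb and Dnajc families with Hspd1 and Hspe1, of which 75 symbols matched among the 33641 in the tables. After 3 pseudogene symbols ending in -ps were left out, 72 remained, and the 66 with a mean of at least 1 TPM (a level normalised for transcript length and for the total of the library) in at least 1 tissue were kept. They comprised 40 DNAJ genes and 26 heat shock proteins. Of the 66, 62 reached the minimum in both tissues, Dnajb3, Dnajb13 and Dnajc6 in scWAT only and Hspb3 in heart only. The 6 genes below it were Dnajb7, Dnajb8, Dnajc5b, Dnajc5g, Dnajc22 and Hspb9. The highest of them was Hspb9 with a mean of 0.315 TPM in scWAT, and the lowest kept was Dnajb3 with 1.43 TPM in scWAT.

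All animals were C57BL/6J mice aged 28 weeks, with genotypes given as wild-type or Adipo-HuR KO and no further treatment named. HuR, encoded by Elavl1, is an RNA-binding protein. The scWAT libraries came from 5 wild-type mice (A5, A7, A8, A12, A14) and 3 mice labelled knockout (A24, A26, A30), and the heart libraries from 4 wild-type mice (A5, A7, A8, A14) and 4 labelled knockout (A25, A29, A30, A31). The deletion is stated to be adipocyte-specific, and neither the Cre driver nor the sex of the animals is stated. Both tissues were taken whole, so fewer cells of a type and less RNA per cell cannot be told apart.

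Chaperones of the HSP70 family bind exposed hydrophobic stretches of unfolded proteins in a cycle driven by ATP, and DNAJ proteins deliver substrates and stimulate that ATPase through their J domain. HSP110 proteins exchange the nucleotide, HSP90 finishes the folding of kinases and receptors, the HSPD1 and HSPE1 chaperonin folds proteins in the mitochondrial matrix, and the small heat shock proteins hold unfolded proteins without ATP. Heat shock factor 1 induces many of the cytosolic members through heat shock elements, whereas unfolded proteins in the endoplasmic reticulum (ER) induce the ER members through the ER stress element. The muscle-rich small heat shock proteins are known for keeping sarcomere proteins soluble.

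Elavl1 was not lower in scWAT labelled knockout: it stood at 42.9, 42.0 and 36.2 TPM there against 19.0 to 34.5 TPM in wild-type scWAT, and at 8.45 to 15.9 against 6.66 to 12.6 TPM in heart. Groups below are therefore the groups of the labels. Sums of 8 adipocyte markers were 41980 to 72142 TPM in wild-type scWAT and sums of 8 cardiomyocyte markers 20818 to 29637 TPM in wild-type heart, which fits the labelled tissues. In heart, A29, labelled knockout, stood with the wild-type libraries: it lay inside their range for 51 of the 66 members, below it for 6 and above it for 9. Heart values are therefore given with A29 and without it, a choice made after its values were seen; rescaled values of single members and the fit with an immediate early covariate are given without it only. Scaling matters as well, since mitochondrially encoded transcripts took 51.9 to 60.6% of TPM in wild-type hearts, 43.4 to 48.9% in A25, A30 and A31, and 6.14 to 14.4% in wild-type scWAT. Directions that change when TPM is rescaled by median of ratios (each library divided by its median ratio to a common reference) are named as such.

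Promoter sequences were searched for the elements through which heat and ER stress are known to act. Of the 66 members, 54 had a promoter window of 250 bases before to 50 bases after the start in the RefSeq table for GRCm38.p6, which may not be the build of the expression tables. The heat shock element was searched on both strands as GAANNTTCNNGAA, whose reverse is TTCNNGAANNTTC. It was present in the window of 4 of the 54 members (7.41%), Dnajb6, Hspd1, Hspe1 and Hsph1, against 0.662% of all 27025 genes with a window. Of the 12 genes listed as heat-inducible, 9 had a window and 3 of these held the element (Hspd1, Hspe1 and Hsph1). The stretches below lie upstream of the start and are written 5′ to 3′ on the strand of the gene, with matches in capitals; overlapping matches appear as 1 run of capitals.
Hspe1 (chr1:55088047-55088126, + strand): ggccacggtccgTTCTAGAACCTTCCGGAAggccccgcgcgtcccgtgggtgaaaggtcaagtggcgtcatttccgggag
Hspd1 (chr1:55088009-55088088, - strand): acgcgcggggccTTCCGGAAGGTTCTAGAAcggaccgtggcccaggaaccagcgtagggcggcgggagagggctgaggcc
Dnajb6 (chr5:29735818-29735897, + strand): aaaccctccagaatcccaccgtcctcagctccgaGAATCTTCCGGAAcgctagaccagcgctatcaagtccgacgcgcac
Hspe1 and Hspd1 are transcribed away from each other, and the pair of overlapping matches in both is the same stretch of DNA read from either strand. Dnajb6 encodes a cochaperone that suppresses protein aggregation.

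With 1 mismatch allowed among the 9 fixed letters, the heat shock element was found in 14 of 54 members (25.9%) and in 8.15% of all genes. Of the 9 heat-inducible genes with a window, 7 held it, and Dnajb1 and Hspa4l did not. The stress-inducible HSP70 genes Hspa1a and Hspa1b are shown because they were the members of largest change in heart without A29; their capitals mark matches with 1 mismatch, and the 80 bases shown are identical.
Hspa1a (chr17:34972203-34972282, - strand): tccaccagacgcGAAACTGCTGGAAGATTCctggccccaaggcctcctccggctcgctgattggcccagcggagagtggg
Hspa1b (chr17:34959285-34959364, - strand): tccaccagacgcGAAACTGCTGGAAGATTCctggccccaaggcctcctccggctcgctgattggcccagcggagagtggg
Their transcripts share sequence as well. In the GENCODE vM21 transcripts, 60.4% of the 50-base windows of Hspa1a and 62.3% of those of Hspa1b occurred in another gene, so how their reads were split is uncertain. The same held for over 20% of windows of Hsp90aa1 (58.5%), Hspb1 (51.7%), Hspa8 (51.4%), Hspd1 (44.8%) and Dnajb6 (35.8%), mostly with pseudogenes.

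The ER stress element, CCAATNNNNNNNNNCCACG (reverse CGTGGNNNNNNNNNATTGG), was present in the window of 3 of 54 members (5.56%) and of 0.137% of all genes. All 3 were on the list of 7 ER-stress-inducible genes, of which 6 had a window, and they encode ER chaperones or their cochaperones: Hspa5 (BiP, the HSP70 of the ER), Hsp90b1 (GRP94, the HSP90 of the ER) and Dnajc3 (a cochaperone of BiP). The Hsp90b1 window holds a second match, further upstream than the stretch shown.
Hspa5 (chr2:34772010-34772089, + strand): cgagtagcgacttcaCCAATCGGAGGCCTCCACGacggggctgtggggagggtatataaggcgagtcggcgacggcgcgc
Hsp90b1 (chr10:86705484-86705563, - strand): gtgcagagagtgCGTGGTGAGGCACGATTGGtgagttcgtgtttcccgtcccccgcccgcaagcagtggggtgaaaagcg
Dnajc3 (chr14:118937815-118937894, + strand): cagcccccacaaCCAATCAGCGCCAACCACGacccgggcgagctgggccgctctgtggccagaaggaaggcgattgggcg
A match describes these letters and is not evidence of binding in these tissues.

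In wild-type animals the 66 members together made up 4143 to 6167 TPM in scWAT and 3721 to 5242 TPM in heart. Outside mitochondrially encoded transcripts, their share was 0.563% ± 0.0945 (SD, n = 5) in scWAT and 1.02% ± 0.0790 (n = 4) in heart. The classes were mixed differently. The 7 small heat shock proteins summed to 1635 ± 326 TPM in heart and 410 ± 121 TPM in scWAT, whereas the 25 DNAJC genes summed to 407 ± 50.8 TPM in heart and 949 ± 61.8 TPM in scWAT. Hspa8, the constitutive cytosolic HSP70, was the most abundant member of both tissues, with 675 to 1367 TPM in wild-type scWAT and 657 to 966 TPM in wild-type heart. Hsp90ab1, the constitutive HSP90, followed in scWAT with 394 to 712 TPM. In heart the next was Hspb7, a small heat shock protein of striated muscle, with 529 to 911 TPM, and Hsp90ab1 (306 to 472 TPM) and Hspb6 (268 to 485 TPM) came next with ranges that overlap each other.

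Wild-type heart and wild-type scWAT were compared with limma on log2(TPM + 1), adjusting p over all genes by Benjamini-Hochberg with a threshold of 0.05. As deposited, 9 of 66 members were higher in heart (13.6%, against 8.55% of all 13727 genes) and 40 were lower (60.6%, against 77.7%). The median difference, heart minus scWAT, was -0.75 over members and -1.22 over all genes on the log2 scale. With median-of-ratios scaling the split turned to 37 higher (56.1%, against 32.7% of all genes) and 15 lower (22.7%, against 33.4%), and 12 members, Hspa5, Hspd1 and Hspe1 among them, passed in opposite directions under the 2 scalings. A gene entered this test with a mean of 1 TPM in either wild-type tissue, so a gene kept through 1 tissue alone had to differ. That was so for 5 members: Hspb3 and Hspa1l, whose mean in wild-type scWAT was 0.991 TPM, were kept through heart, and Dnajb3, Dnajb13 and Dnajc6 through scWAT. Among the 61 members at the minimum in both tissues, 7 were higher in heart as deposited (11.5%, against 6.60% of all 10970 such genes) and 37 lower (60.7%, against 79.0%), and after rescaling 35 were higher (57.4%, against 36.0%) and 12 lower (19.7%, against 29.8%). Directions are stated for the 19 of the 61 that passed the same way in both scalings, 7 higher and 12 lower in heart, and the other 5 are given by their values.

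The 7 higher in heart were 4 of the 7 small heat shock proteins (Hspb2, Hspb6, Hspb7, Hspb8), Dnaja4, Dnajb5 and Dnajc28. Hspb7 was at 529, 759, 911 and 838 TPM in the wild-type hearts A5, A7, A8 and A14 while wild-type scWAT had 41.6 (A5), 30.5 (A7), 5.70 (A8), 32.3 (A12) and 4.18 TPM (A14). The tissues did not overlap, and within scWAT A8 and A14 lay far below A5, A7 and A12. The difference was 5.43 on the log2 scale (SE 0.57, limma adjusted p = 2.24e-06). Hspb3, kept through heart alone and known to form a complex with Hspb2 in muscle, was at 6.33 to 10.5 TPM in heart and at 0 in 3 of 5 wild-type scWAT libraries, with 0.151 and 0.0983 TPM in A7 and A12. Hspb6 was at 268 to 485 TPM in heart and 43.8 to 74.4 TPM in scWAT, a difference of 2.97 (SE 0.21, limma adjusted p = 8.18e-08). Among the cochaperones, Dnaja4 was at 31.2 to 47.6 TPM in heart and 6.54 to 12.4 TPM in scWAT, and Dnajb5 at 17.9 to 38.8 against 7.65 to 9.93 TPM. Hspa1l, also kept through heart alone and an HSP70 known best from testis, was at 3.78 to 5.69 TPM in heart and 0.536 to 1.49 TPM in scWAT. The remaining small heat shock proteins were Hspb1, which did not pass as deposited (difference 0.31, limma adjusted p = 0.307), and Hspb11, a subunit of intraflagellar transport that was lower in heart in both scalings.

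The 12 lower in heart included Dnaja1, the main DNAJ partner of cytosolic HSP70, at 23.8 to 61.6 TPM in heart and 120 to 223 TPM in scWAT. Dnajb1, the partner induced by heat, was at 3.10, 6.80, 6.04 and 4.10 TPM in the hearts of A5, A7, A8 and A14 and between 19.5 and 21.1 TPM in all 5 wild-type scWAT libraries (difference -1.87, SE 0.19, limma adjusted p = 1.86e-06). Hspa12a, a divergent HSP70, was at 4.96 to 6.27 TPM in heart and 36.9 to 87.8 TPM in scWAT (difference -3.18, SE 0.23, limma adjusted p = 9.86e-08). The other 9 were Dnajb12, Dnajb14, Dnajc3, Dnajc8, Dnajc14, Dnajc24, Hspa2, Hspa14 and Hspb11. Of the heat-inducible list, 5 of 12 were lower in heart as deposited, against 77.7% of all genes. Only Dnaja1 and Dnajb1 kept that direction in both scalings, where 33.4% of all genes were lower after rescaling. Of the members kept through scWAT alone, Dnajb13, known from the radial spokes of cilia and flagella, was at 11.7 to 19.2 TPM in scWAT and at most 0.255 TPM in wild-type heart. Dnajc6 (auxilin, which uncoats clathrin vesicles with HSP70) spread from 0.456 to 4.57 TPM in scWAT and did not exceed 0.0870 TPM in wild-type heart.

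**Figure D1:**
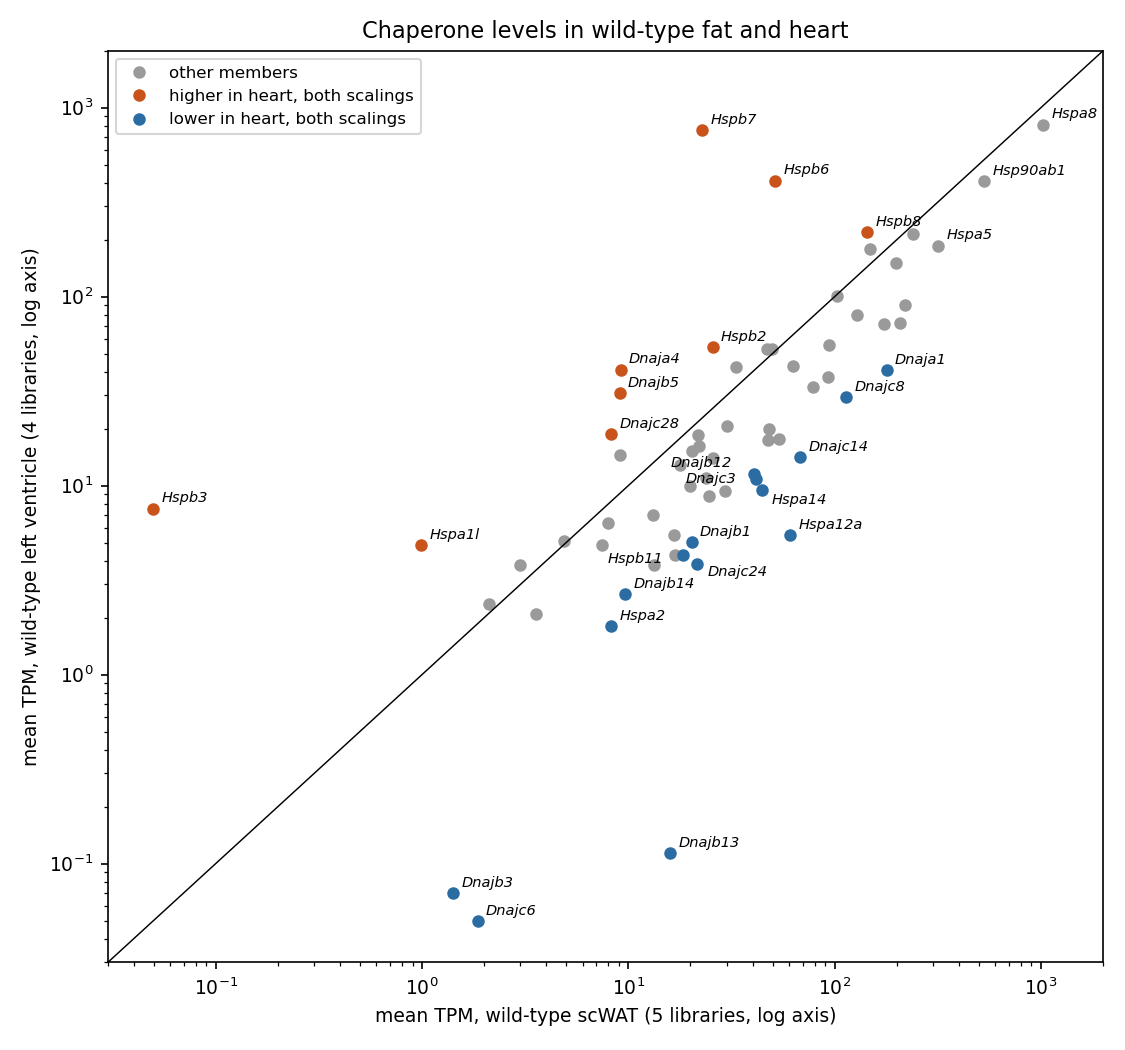
Mean TPM of the 66 members in wild-type left ventricle (vertical, 4 libraries) against wild-type scWAT (horizontal, 5 libraries), both on log axes, with the line of equal TPM. Orange points are the 9 members higher in heart in both scalings, blue the 15 lower, with the 5 kept through 1 tissue alone among them; Hspb7, Hspb6 and Hspb3 lie far above the line and Dnajb13 far below it.

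In scWAT the comparison asks what changes in fat itself. None of the 65 members tested passed the adjusted threshold of limma, and 0.0219% of all 13682 genes did. At an unadjusted p under 0.05, 7 members were higher (10.8%, against 8.11% of all genes) and 5 lower (7.69%, against 7.52%), so the members' shares lay near the background. The median log2 fold change, knockout over wild-type, was 0.05 over members and 0.03 over all genes. Over the 12 heat-inducible genes the median was 0.39, with 4 higher at an unadjusted p under 0.05 (Hspa1a, Hspa1b, Hsph1 and Dnajb1) and none lower. Over the 7 ER-stress-inducible genes it was 0.08, with none at an unadjusted p under 0.05.

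The smallest p belonged to Dnajb13. The wild-type animals A5, A7, A8, A12 and A14 had 19.2, 17.3, 11.7, 19.2 and 11.98 TPM, whereas A24, A26 and A30 had 5.78, 5.86 and 10.2 TPM. All 3 libraries labelled knockout lay below all wild-type ones (log2 fold change -1.04, SE 0.24), and limma gave an adjusted p of 0.216. Dnajc7, a cochaperone that carries clients between HSP70 and HSP90, was at 88.6, 86.5, 122, 76.2 and 92.2 TPM in wild-type and 128, 180 and 145 TPM in the other group. Here too the groups did not overlap (change 0.69, SE 0.18, limma adjusted p = 0.216).

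Hspa1a was at 1.998, 2.48, 2.03, 1.52 and 2.51 TPM in wild-type scWAT, and A24 (5.70 TPM), A26 (2.78 TPM) and A30 (3.85 TPM) were again all higher. Its copy Hspa1b was at 2.39 to 4.70 TPM in wild-type and 8.36, 4.48 and 4.798 TPM, with A26 inside the wild-type range. Dnajb1, which varied little in wild-type scWAT, was between 22.8 and 28.1 TPM in the other group, above all 5 wild-type libraries. Their log2 fold changes were 0.69 (SE 0.23), 0.58 (SE 0.26) and 0.28 (SE 0.12), and limma adjusted p was 0.243, 0.319 and 0.302. Hsph1, an HSP110 nucleotide exchange factor, was at 11.05 to 31.3 TPM in wild-type and at 38.6 (A24), 53.9 (A26) and 29.4 TPM (A30). Its change was 0.94 (SE 0.36, limma adjusted p = 0.271). The changes of Hspb1 (-0.45, SE 0.30, limma adjusted p = 0.466) and Hspa8 (0.41, SE 0.28, limma adjusted p = 0.477) were within the overlap of the groups. Dnajb2, a cochaperone that binds ubiquitin chains, also lay higher without overlap, at 46.1 to 52.3 against 24.2 to 44.6 TPM (0.56, SE 0.19, limma adjusted p = 0.244). Dnajc14, at 54.4 to 57.4 against 64.9 to 73.8 TPM (-0.29, SE 0.11, limma adjusted p = 0.266), and Hspa2, at 5.64 to 6.85 against 6.96 to 9.77 TPM, lay lower without overlap. Hspa12a (-1.02, SE 0.37, limma adjusted p = 0.261) and Hspb2 (-1.19, SE 0.47, limma adjusted p = 0.284) had lower values that overlapped between the groups. In all, 4 of 65 members lay higher (6.15%, against 5.23% of all genes tested) and 3 lower (4.62%, against 5.06%) without overlap, shares near the background, and neither direction held a member past the adjusted threshold.

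**Figure D2:**
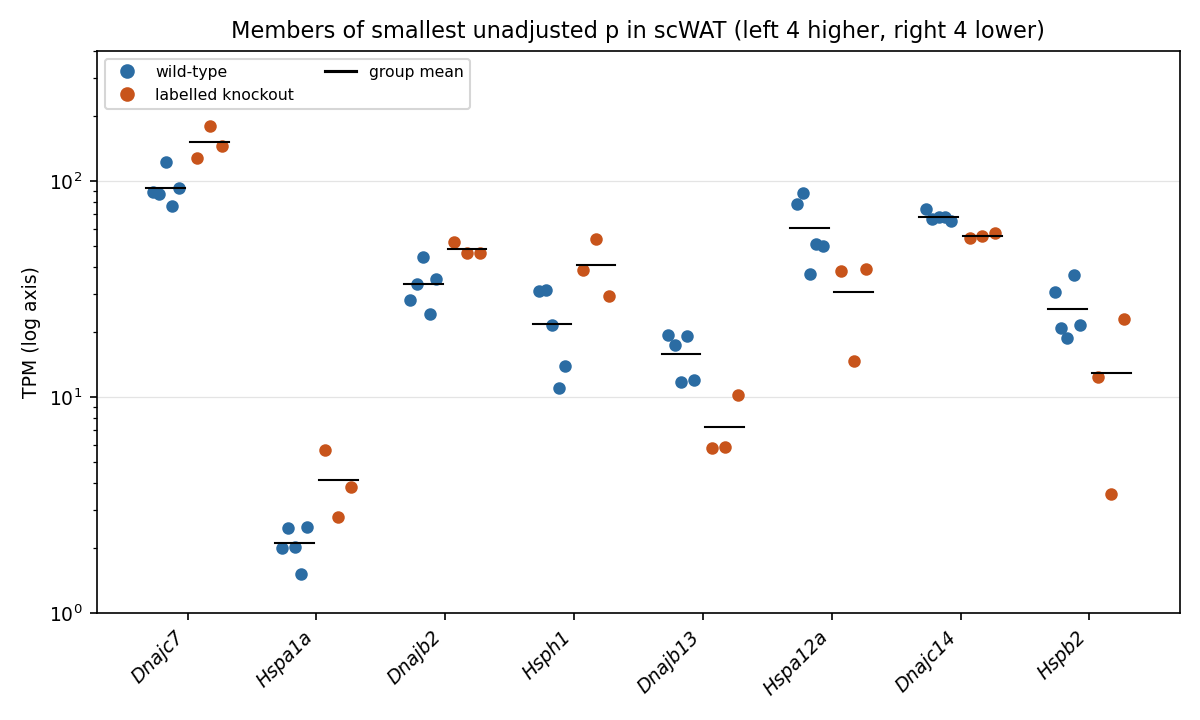
TPM (log axis) in each scWAT library of the 4 members of smallest unadjusted p per direction; blue points are the 5 wild-type libraries, orange points the 3 labelled knockout, and black lines the group means. Dnajc7, Hspa1a and Dnajb2 lie higher and Dnajb13 and Dnajc14 lower without overlap, and none of the 8 passed the adjusted threshold.

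The scWAT libraries labelled knockout also differed in other cells. The sum of 12 skeletal muscle markers reached 7805 TPM in A30 and 3661 TPM in A24, with A26 at 290 TPM and wild-type libraries from 11.7 to 826 TPM, the highest being A7, and 1 of the 12 markers was higher in all 3 than in every wild-type library. Muscle-rich Hspb3 was at 0.666 and 1.84 TPM in A24 and A30, at 0 in A26 and at most 0.151 TPM in wild-type. The sum of 5 B cell markers was 437 TPM in A26 and at most 19.3 TPM in every other scWAT library, and that of 6 T cell markers 396 TPM in A26 against 5.25 to 13.8 TPM in wild-type. Of 7 markers of thermogenic adipocytes, 3 (Ucp1, Elovl3 and Cpt1b) lay above every wild-type library in all 3. Ucp1, the uncoupling protein of brown and beige fat, reached 186 TPM in A26 and 70.2 TPM in A30, with 8.85 TPM in A24, and did not exceed 1.16 TPM in wild-type. The sums of the 7 were 426, 918 and 706 TPM, against 115 to 544 TPM. Wild-type hearts had 966 to 1453 TPM for the same 7, so the list is not particular to fat. How much skeletal muscle added to the scWAT sums was not tested. The part of thermogenic and T cell transcripts in the member values was not tested. A26 was also the library with the highest Hspe1 (298 TPM, against 113 to 148 TPM in the other 7) and the lowest Hspb2 (3.54 TPM) and Hspa12a (14.6 TPM). With the mean of the muscle list as a covariate 1 member was higher and 8 were lower (unadjusted p under 0.05), against 8.51% and 11.4% of all genes. With the mean of the B cell list 6 were higher and 1 lower, against 6.93% and 4.01%. No member passed the adjusted threshold under either.

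In heart the comparison asks what differs in an organ outside the intended deletion. With all 8 libraries no member passed limma's adjusted threshold among 63 tested, and 0.0501% of all 11981 genes did. At an unadjusted p under 0.05, 21 members were higher (33.3%, against 20.9% of all genes) and 2 lower, Hspa12a and Dnajc28 (3.17%, against 3.66%). The median log2 fold change was 0.41 over members and 0.26 over all genes, and that all-gene median is subtracted from heart values below; the tests used the values before subtraction. Without overlap among all 8 libraries, 5 of the 63 lay higher (7.94%, against 3.71% of all genes tested), namely Dnajc19, Dnajc24, Hspb2, Hspb3 and Hspe1, and Hspa12a lay lower (1.59%, against 0.634%). With array weights, which let limma down-weight libraries by their own scatter, 49 of the 63 passed (77.8%, against 65.8% of all genes). After median-of-ratios scaling of all 8 libraries none passed.

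Without A29, leaving 3 against 4 libraries, 34 members rose (54.0%, against 34.8% of all 12081 genes) and 2 fell, Dnajc28 and Hspa12a (3.17%, against 4.16%). The all-gene median was then 0.39, and 0.56 over members. With median-of-ratios scaling 13 rose (20.6%, against 20.9% of all genes) and 14 fell (22.2%, against 19.8%), shares near the background. The number of chaperones that changed was thus not apart from that of other genes once libraries were rescaled. Leaving out A25 as well gave 20 higher and 1 lower as deposited, and leaving out A7 or A31 as well gave 1 lower. The all-gene counts of these fits are not given here, so whether chaperones moved apart from other genes cannot be told. All 13 had also risen as deposited, and both that fell as deposited were among the 14. The 13 were Hspa1a, Hspa1b, Hspa1l, Hspa13, Hsp90aa1, Hsp90b1, Hspb1, Hspb3, Hspb11, Dnajb1, Dnajb11, Dnajc3 and Dnajc24.

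**Figure D3:**
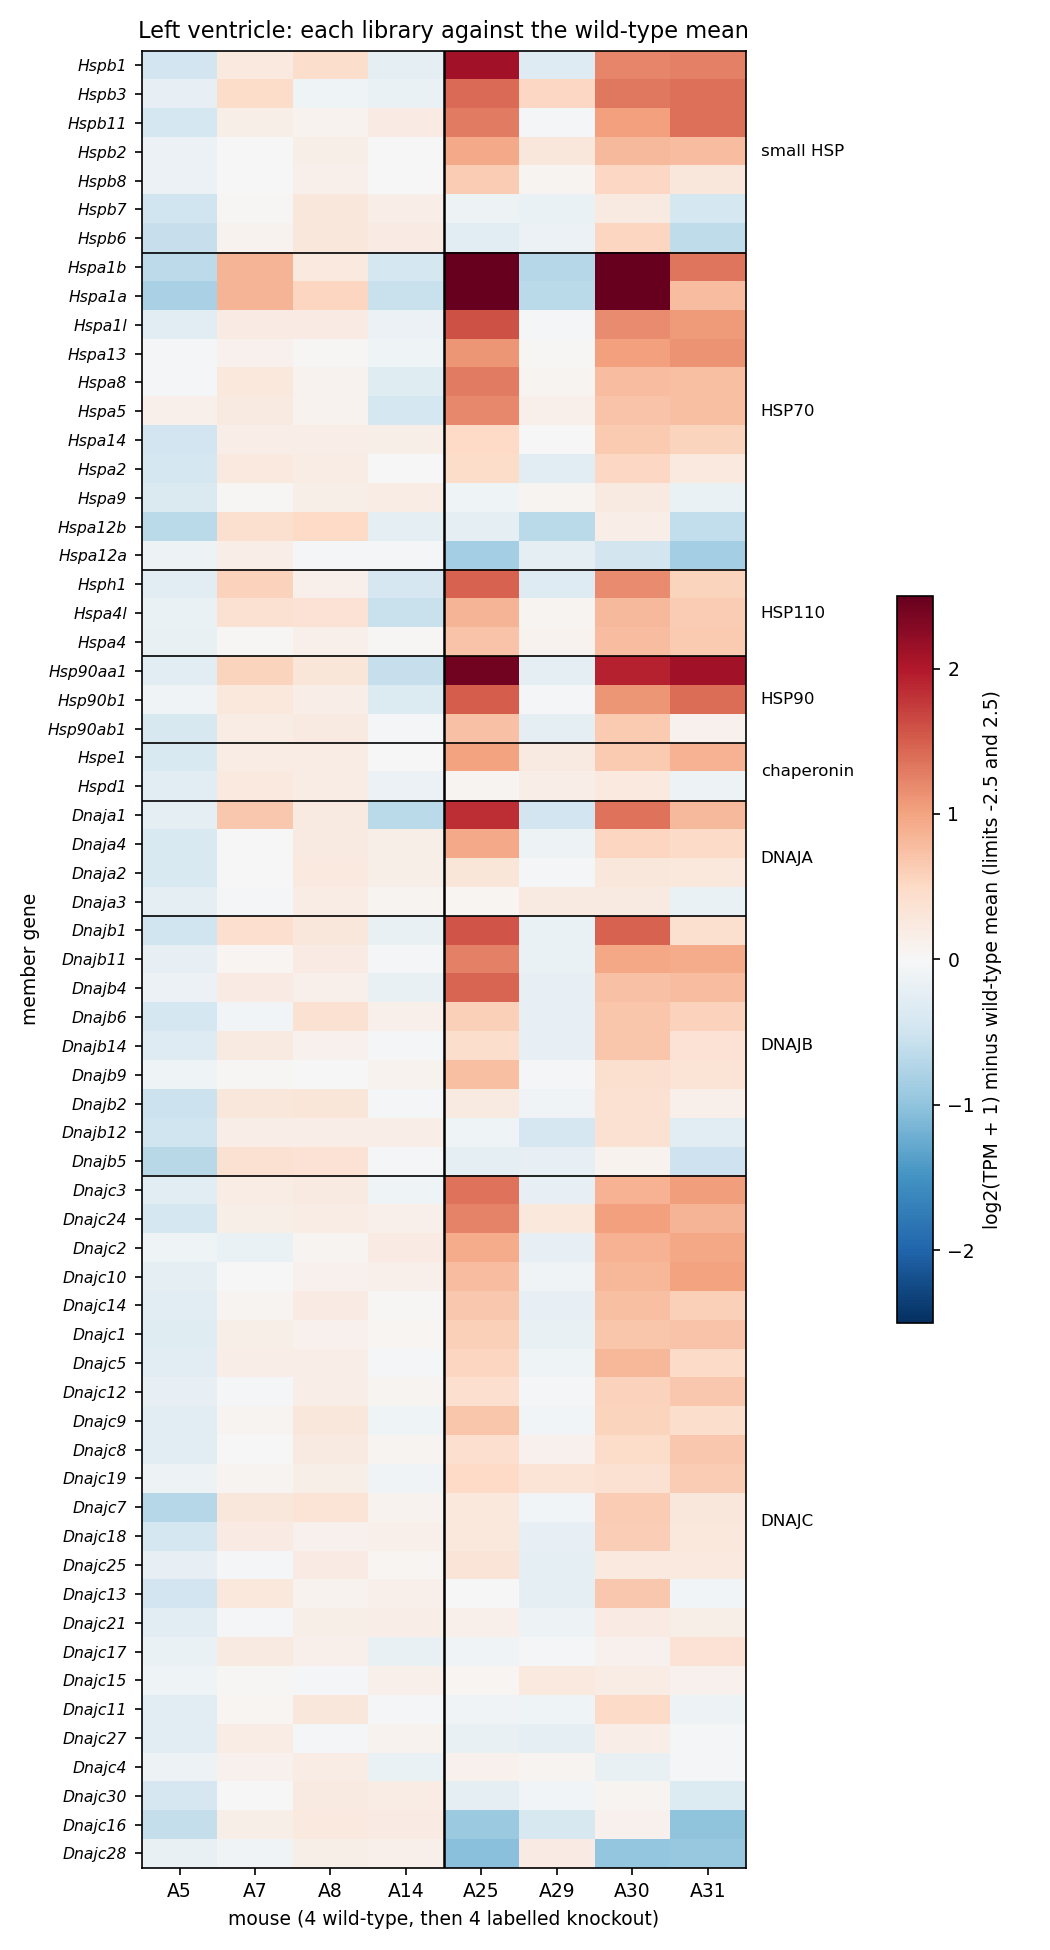
Difference of log2(TPM + 1) from the mean of the 4 wild-type hearts for the 63 members tested in heart (rows, by class) in each library (columns, wild-type left of the line); red is above and blue below that mean. A25, A30 and A31 are red over most rows, A29 is pale over most rows, and Hspa12a and Dnajc28 are blue in A25, A30 and A31.

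The 4 largest rises of members without A29 were those of the heat-inducible genes Hspa1b, Hspa1a, Hsp90aa1 and Hspb1. Of the 12 on that list, 10 rose as deposited (83.3%, against 34.8% of all genes), and their median log2 fold change was 1.11 before the all-gene median of 0.39 was subtracted. Rescaled by median of ratios, 5 rose (41.7%, against 20.9% of all genes: Hspa1a, Hspa1b, Hsp90aa1, Hspb1 and Dnajb1) and Hspd1 fell. Hspa1b was at 0.806, 4.11, 2.37 and 1.08 TPM in wild-type A5, A7, A8 and A14, and the hearts A25 (37.3 TPM), A30 (23.3 TPM) and A31 (6.19 TPM) were higher, with A29 at 0.738 TPM. Hspa1a was at 0.707, 4.39, 3.33 and 1.05 TPM in the wild-type hearts, with 28.5 TPM in A25, 19.9 TPM in A30, 4.11 TPM in A31 and 0.895 TPM in A29. A25 and A30 were far above all others for both genes, A31 lay just above the wild-type range for Hspa1b and inside it for Hspa1a, and A29 lay at the low end. Relative to the median gene and without A29, the log2 fold changes were 2.34 (SE 0.55, limma adjusted p = 0.00380) and 1.90 (SE 0.60, limma adjusted p = 0.0144), and with A29 they were 1.62 and 1.29 (limma adjusted p = 0.186 and 0.234).

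Hsp90aa1, the inducible HSP90, was at 56.7, 102, 85.6 and 45.7 TPM in wild-type hearts and reached 371 TPM in A25, 264 TPM in A30 and 301 TPM in A31, with A29 at 58.7 TPM. The 3 lay above every wild-type heart by a wider margin, for their spread, than the HSP70 genes did: the log2 fold change relative to the median gene was 1.76 without A29 (SE 0.26, limma adjusted p = 0.000255). Hspa1l, which lies beside Hspa1a in the genome, was at 3.78 to 5.69 TPM in wild-type hearts and at 16.4, 12.1, 11.1 and 4.60 TPM in A25, A30, A31 and A29, and it rose in both scalings (0.89, SE 0.22, limma adjusted p = 0.00154 without A29). Constitutive Hsp90ab1 was at 306 to 472 TPM in wild-type hearts and at 664, 632, 431 and 339 TPM in A25, A30, A31 and A29, and it did not pass (0.10, SE 0.20, limma adjusted p = 0.0738). Hspb1 was at 125, 206, 235 and 149 TPM in wild-type hearts, with 747 TPM in A25, 404 TPM in A30, 415 TPM in A31 and 139 TPM in A29 (1.14, SE 0.27, limma adjusted p = 0.00192 without A29). With A29 included none of these 4 passed, at 1.30 (SE 0.51) for Hsp90aa1, 0.69 (SE 0.33) for Hspa1l, 0.05 (SE 0.24) for Hsp90ab1 and 0.81 (SE 0.43) for Hspb1, and limma adjusted p was 0.142, 0.149, 0.432 and 0.166.

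Dnajb1 was at 3.10 to 6.80 TPM in wild-type hearts and at 16.3, 15.3, 6.72 and 4.19 TPM in A25, A30, A31 and A29, so that A31 lay inside the wild-type range. It passed without A29 in both scalings (limma adjusted p = 0.0213 and 0.0488). Dnaja1 (68.5 to 141 TPM in A25, A30 and A31, 23.8 to 61.6 TPM in wild-type) and Hsph1 (26.6 to 51.1 against 13.1 to 27.1 TPM) rose as deposited and did not pass after rescaling (limma adjusted p = 0.0676 and 0.105). Hspa8 (1355 to 1990 against 657 to 966 TPM), Hspe1 (125 to 158 against 59.9 to 89.8 TPM) and Hspa4l (22.0 to 25.7 against 9.09 to 18.3 TPM) likewise rose as deposited only. The chaperonin pair that shares the promoter printed above went apart: Hspd1, at 138 to 179 TPM against 124 to 177 TPM in wild-type, did not pass as deposited (-0.32 relative to the median gene, SE 0.16, limma adjusted p = 0.764) while Hspe1 had 0.45 (SE 0.17, limma adjusted p = 0.00419). Whether these 2 changes differ from each other was not tested. With A29 included the changes relative to the median gene were 0.57 (SE 0.40) for Dnajb1, 0.63 (SE 0.45) for Dnaja1, 0.47 (SE 0.37) for Hsph1, 0.46 (SE 0.24) for Hspa8, 0.43 (SE 0.22) for Hspe1, 0.33 (SE 0.27) for Hspa4l and -0.16 (SE 0.18) for Hspd1, with limma adjusted p from 0.142 (Hspa8 and Hspe1) to 0.756 (Hspd1).

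**Figure D4:**
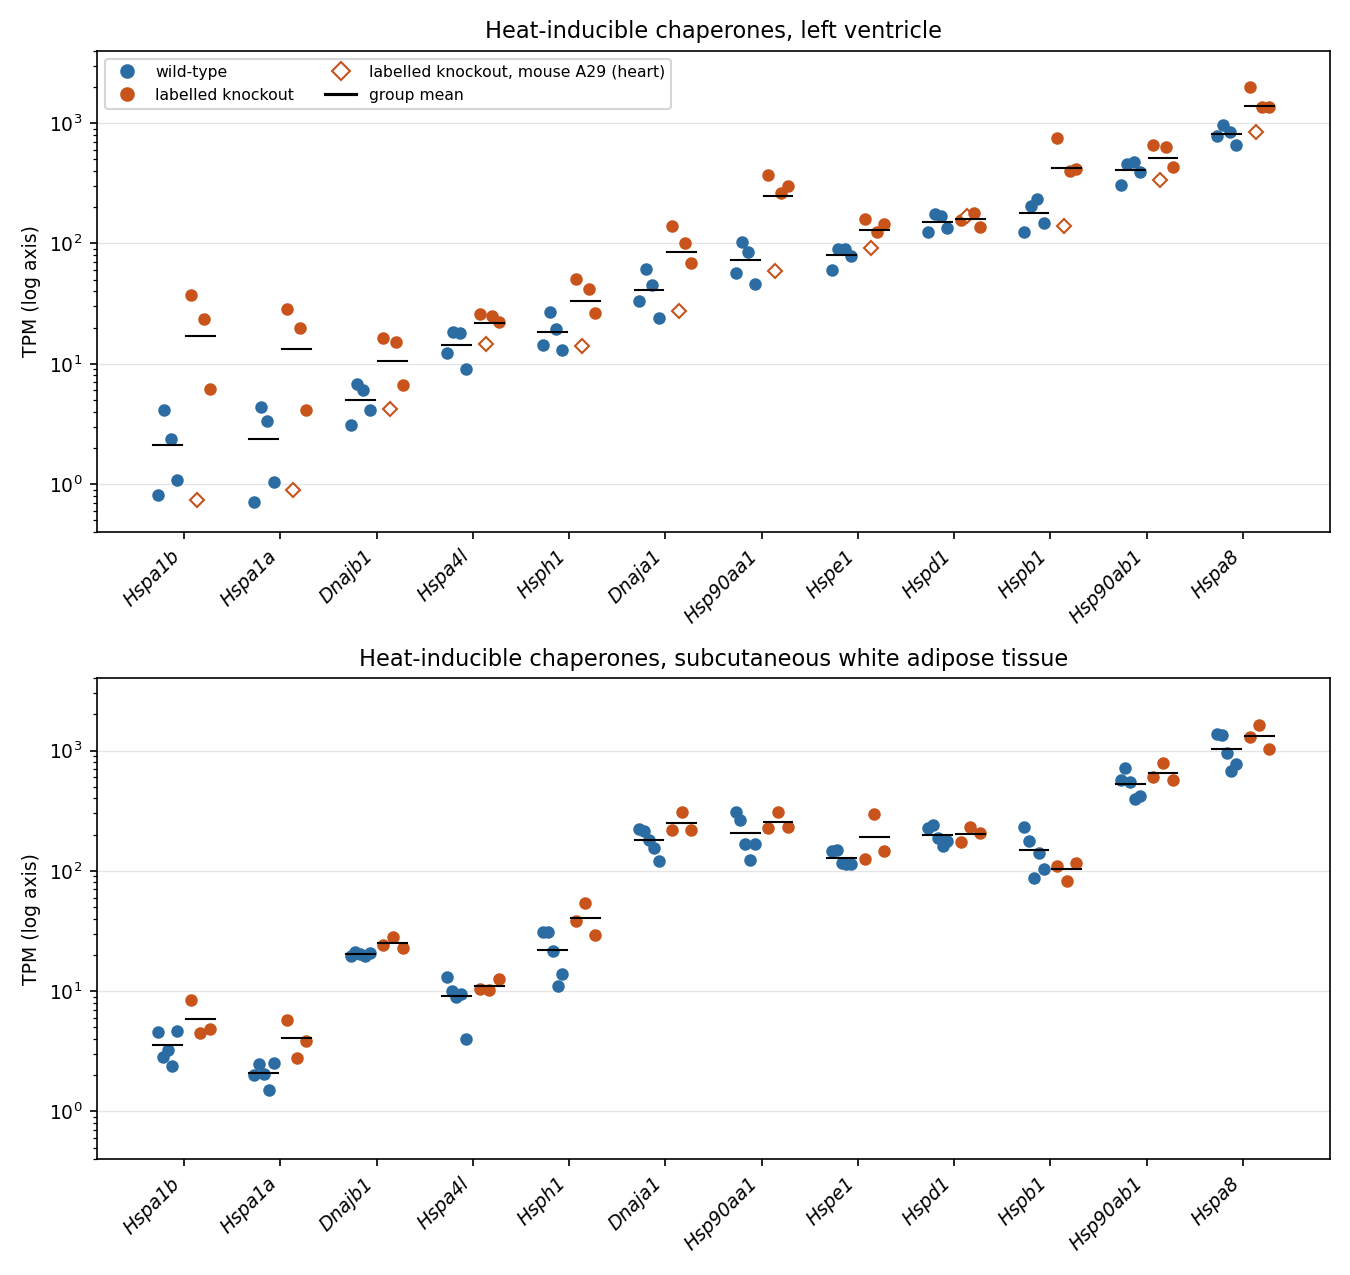
TPM (log axis) of the 12 heat-inducible members in each heart library (top) and each scWAT library (bottom), ordered by wild-type heart mean; blue points are wild-type, orange points labelled knockout, the open diamond A29, and black lines group means including A29. In heart A25 and A30 stand highest for Hspa1a, Hspa1b and Dnajb1 and A29 lies within the wild-type range for 10 of the 12, below it for Hspa1b and above it for Hspe1.

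All 7 ER-stress-inducible genes rose without A29 as deposited, against 34.8% of all genes, with a median log2 fold change of 1.05 before subtraction against 0.39 over all genes. After rescaling 4 of the 7 rose (Hsp90b1, Hspa13, Dnajb11 and Dnajc3; 57.1%, against 20.9%). Hsp90b1 was at 83.9, 108, 100 and 69.6 TPM in wild-type hearts whereas A25 had 257, A30 192 and A31 237 TPM, and A29 86.8 TPM (0.95 relative to the median gene, SE 0.18, limma adjusted p = 0.000390 without A29). Hspa13, a small HSP70 of microsomes, was at 3.89 to 4.70 TPM in wild-type hearts and at 10.3, 9.74 and 10.5 TPM, with 4.41 TPM in A29 (0.69, SE 0.17, limma adjusted p = 0.00110). Unlike Hspa1a, these genes were about equally high in all 3 libraries.

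Dnajc3, whose ER stress element is printed above, was at 8.61 to 12.6 TPM in wild-type hearts and at 29.1, 20.4, 23.3 and 9.21 TPM in A25, A30, A31 and A29 (0.70 without A29, SE 0.20, limma adjusted p = 0.00228). Dnajb11, a DNAJ partner of BiP, was at 15.03 to 20.3 TPM in wild-type and 43.1, 35.1, 34.1 and 15.5 TPM (0.66, SE 0.17, limma adjusted p = 0.00110). Hspa5 itself was at 135 to 214 TPM in wild-type and 423, 301, 307 and 200 TPM. It rose as deposited (0.50, SE 0.19, limma adjusted p = 0.00539) and did not pass after rescaling (limma adjusted p = 0.305). Dnajc10, an ER reductase (19.3 to 23.0 against 9.11 to 11.96 TPM), and Dnajb9, a repressor of the IRE1 sensor (16.5 to 22.2 against 11.7 to 13.7 TPM), also lay higher without overlap and passed as deposited only. With A29 included none of the 7 passed: the changes were 0.74 (SE 0.32) for Hsp90b1, 0.57 (SE 0.27) for Hspa13, 0.51 (SE 0.32) for Dnajc3, 0.49 (SE 0.29) for Dnajb11, 0.44 (SE 0.24) for Hspa5, 0.38 (SE 0.26) for Dnajc10 and 0.11 (SE 0.21) for Dnajb9, with limma adjusted p from 0.142 (Hsp90b1 and Hspa13) to 0.292 (Dnajb9). Over all 10 members placed in the ER, 8 rose without A29 as deposited, where 34.8% of all genes did. In both scalings 4 rose, where 20.9% of all genes rose after rescaling. Dnajb12 fell after rescaling, where 19.8% of all genes did.

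Of the 8 mitochondrial members, Hspe1 and Dnajc19 (a subunit of the presequence import motor) rose without A29 as deposited, where 34.8% of all genes did. After rescaling none rose, where 20.9% of all genes did. Hspd1, Hspa9, Dnaja3, Dnajc11 and Dnajc30 then fell, where 19.8% of all genes did. Hspa9 (mortalin), at 188 to 246 TPM in A25, A30 and A31 and 164 to 240 TPM in wild-type, overlapped between the groups.

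The muscle-rich small heat shock proteins split. Hspb3 was at 6.33, 10.5, 6.86 and 6.53 TPM in wild-type hearts and between 20.03 and 21.3 TPM in the hearts A25, A30 and A31, and A29 with 11.03 TPM was also above all wild-type libraries (0.98 without A29, SE 0.20, limma adjusted p = 0.000694). It was the member of smallest p with all 8 libraries (0.90, SE 0.26, limma adjusted p = 0.142). Hspb2, its partner, was at 48.5 to 60.3 TPM in wild-type and 106, 95.2, 92.6 and 65.6 TPM in A25, A30, A31 and A29, and passed without A29 as deposited (0.45, SE 0.14, limma adjusted p = 0.00113) and not after rescaling. Hspb7 (551 to 867 against 529 to 911 TPM) and Hspb6 (259 to 581 against 268 to 485 TPM) overlapped between the groups, did not pass as deposited and fell after rescaling. Hspb11 rose in both scalings, from 2.85 to 4.97 TPM in wild-type to 9.61 to 12.6 TPM. Hspb8, which works with the exchange factor Bag3 in selective autophagy, was at 266.5 to 341 TPM against 196.5 to 240 TPM and passed as deposited only. With A29 included Hspb2 was at 0.45 (SE 0.19), Hspb8 at 0.12 (SE 0.17) and Hspb11 at 0.66 (SE 0.33) (limma adjusted p = 0.142, 0.200 and 0.149).

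Dnajc28 and Hspa12a were the members that fell in both scalings without A29. Dnajc28 was at 16.2, 17.3, 20.8 and 20.4 TPM in wild-type hearts, between 8.46 and 9.12 TPM in the hearts A25, A30 and A31, and A29 with 21.6 TPM was above all wild-type hearts (-1.38 without A29, SE 0.17, limma adjusted p = 0.00152). Hspa12a was at 4.96 to 6.27 TPM in wild-type, with 2.60 TPM in A25, 3.71 TPM in A30, 2.58 TPM in A31 and 4.56 TPM in A29 (-1.11, SE 0.19, limma adjusted p = 0.0156). Of the cochaperones outside the heat-inducible and ER lists that rose as deposited only, Dnajb4 had the largest change, with 146, 87.7 and 90.3 TPM against 45.9 to 60.6 TPM in wild-type and 45.4 TPM in A29 (0.60, SE 0.20, limma adjusted p = 0.00418). Dnaja4, Dnajb6, Dnajc1, Dnajc2, Dnajc5, Dnajc8, Dnajc12, Dnajc14 and mitochondrial Dnajc19 were the others, and Hspa4, an HSP110 exchange factor, did the same (0.33, SE 0.14, limma adjusted p = 0.00293). Dnajb5, Dnajc16, Dnajc27 and Hspa12b fell after rescaling and did not pass as deposited. Dnajc24, which acts in diphthamide synthesis, was the DNAJC gene other than Dnajc3 that rose in both scalings, from 2.51 to 4.42 TPM in wild-type to 7.65 to 10.4 TPM. With A29 included, changes were -0.95 (SE 0.29) for Dnajc28, -0.85 (SE 0.23) for Hspa12a, 0.44 (SE 0.30) for Dnajb4, 0.30 (SE 0.20) for Hspa4 and 0.59 (SE 0.27) for Dnajc24, and limma adjusted p was 0.177, 0.158, 0.191, 0.149 and 0.142.

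**Figure D5:**
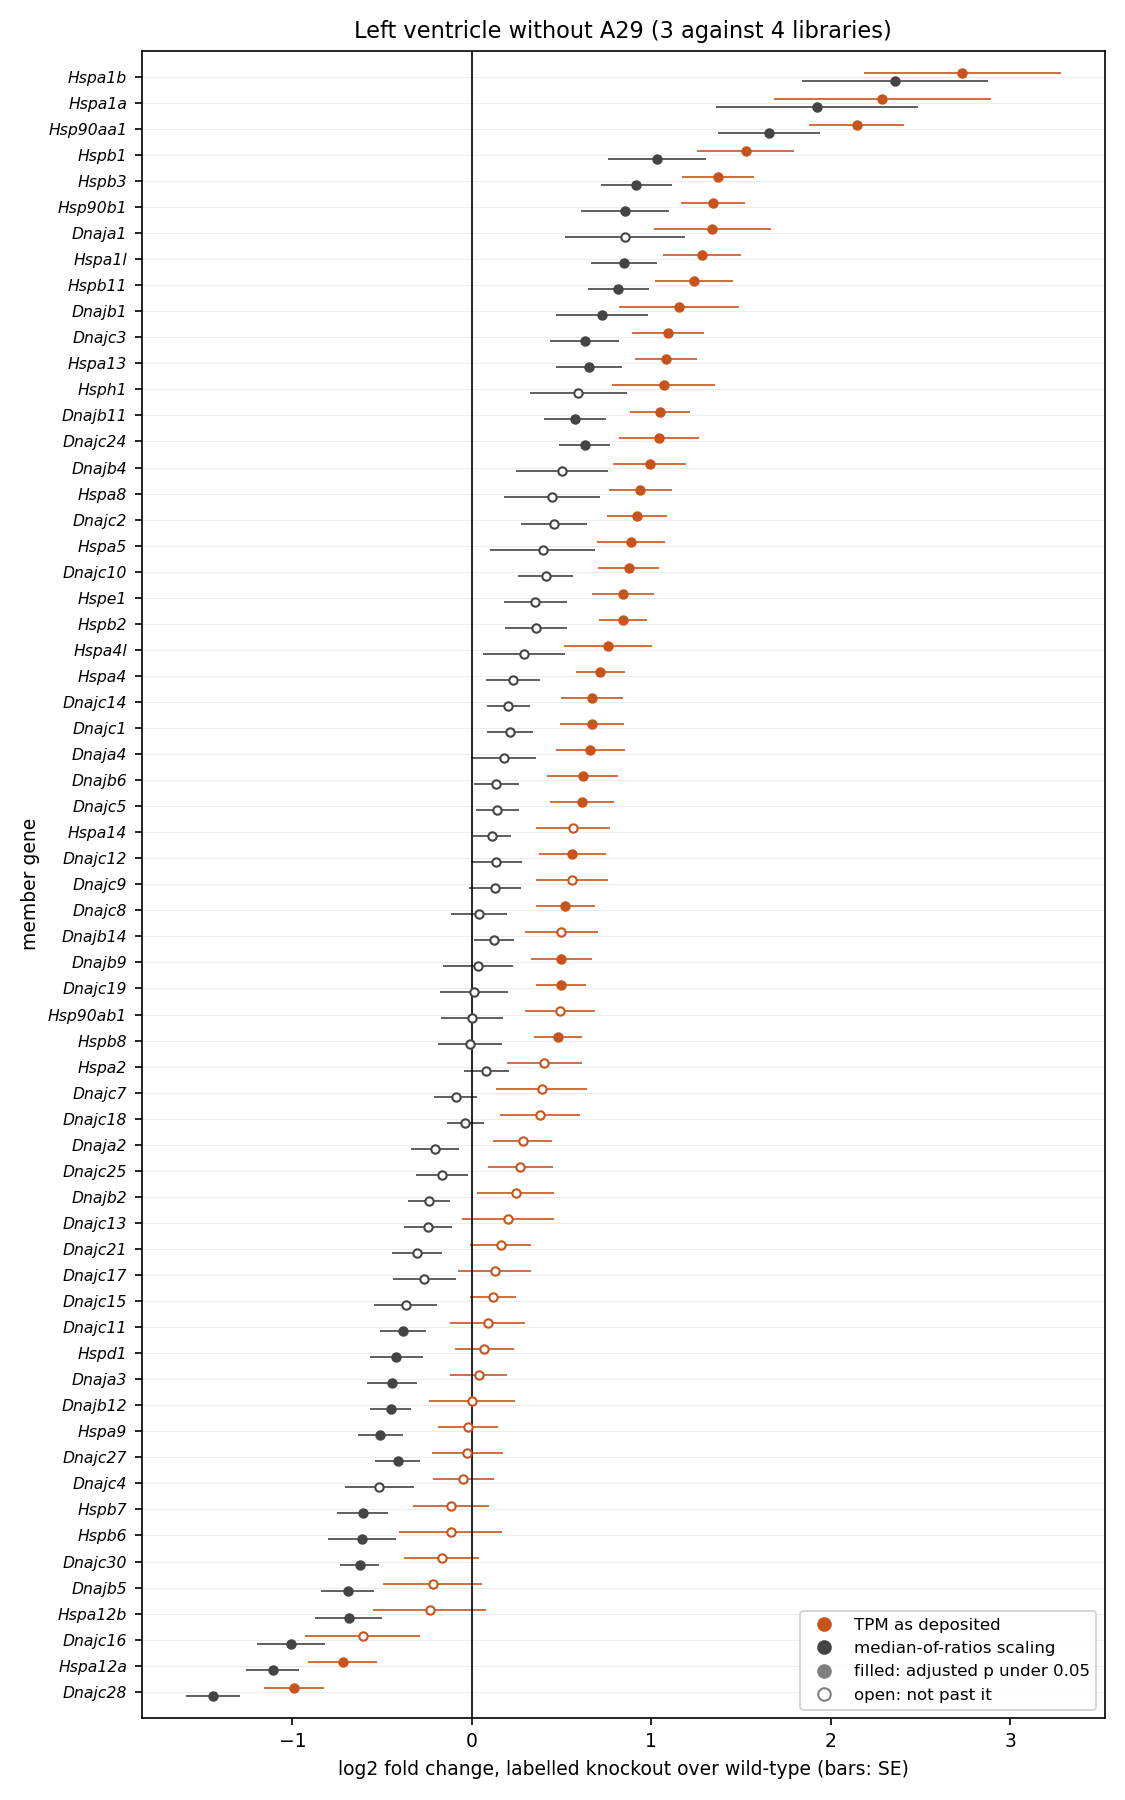
Log2 fold change with its SE (bars) of the 63 members in heart without A29, from TPM as deposited (orange) and after median-of-ratios scaling (grey), before any subtraction; filled points passed the adjusted threshold. All members lie lower after rescaling; the 13 filled in both colours on the right and Dnajc28 and Hspa12a on the left passed in the same direction in both.

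Other transcripts separated the same libraries. The 6 fibroblast markers were all higher in A25, A30 and A31 than in every wild-type heart, with sums of 2116, 3240 and 2851 TPM against 196 to 299 TPM, and 240 TPM in A29. The 5 macrophage markers were likewise all higher, with sums of 107 to 155 TPM against 22.0 to 37.3 TPM. Of 5 atrial markers (Myl7, Myl4, Sln, Bmp10 and Nppa), 3 were higher in A25, A30 and A31 than in every wild-type heart. Nppa, the atrial natriuretic peptide that hypertrophic ventricles also make, was at 6980, 5021 and 5380 TPM against 108 to 313 TPM. The atrial light chain Myl7 did not exceed 1.33 TPM in any heart. Sums of the 8 cardiomyocyte markers were 15508 to 22274 TPM in A25, A30 and A31 and 20818 to 29637 TPM in wild-type. Their part in the chaperone differences was not tested.

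The sum of 8 immediate early genes, which can move with handling of tissue, was 128 TPM in A25, 161 TPM in A30, 117 TPM in A31, 48.9 TPM in A29 and 35.3, 111, 100 and 80.7 TPM in wild-type A5, A7, A8 and A14. Among wild-type hearts Hspa1a, Hspa1b and Dnajb1 were lowest in A5 and highest in A7, the libraries of the lowest and highest sum. Other heat-inducible genes differed: Hsp90aa1 was lowest in A14 and Hspb1 highest in A8. A5 was also the wild-type heart with the highest mitochondrially encoded share (60.6%). With the mean of that list as a covariate and without A29, 26 of 63 members were higher and 5 lower past the threshold. Of all genes, 29.7% were higher and 13.6% lower. Of the heat-inducible list, Hspa1a (1.40 relative to the median gene, SE 0.59, limma adjusted p = 0.0618) and Dnajb1 (0.58, SE 0.29, limma adjusted p = 0.0675) then no longer passed. Nor did Hsph1 and Hspa4l (limma adjusted p = 0.0558 and 0.0952). Hspa1b (1.97, SE 0.56, limma adjusted p = 0.0163), Hsp90aa1, Hspb1, Hspa8, Hspe1 and Dnaja1 still passed, and so did 6 of 7 ER-stress-inducible genes. Without A29 the sums did not overlap between the labels, so the list and the genotype cannot be told apart. The part of handling in the chaperone values was not tested.

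Of the partners, exchange factors and other chaperones outside the families, 53 of 54 listed were in the tables. In scWAT none of 51 tested passed. In heart none passed with all libraries, and without A29 27 of 51 rose (52.9%, against 34.8% of all genes, with a median log2 fold change of 0.60 against 0.39) and 1 fell, Fkbp4, an immunophilin of the HSP90 machine (1.96%, against 4.16%). After rescaling 8 rose (15.7%, against 20.9%), all of which had risen as deposited, and 9 fell (17.6%, against 19.8%), shares near or below the background. The smallest p was that of Serpinh1, the collagen chaperone HSP47, at 50.2 to 99.0 TPM in wild-type hearts and 302, 245, 225 and 64.1 TPM in A25, A30, A31 and A29 (1.39 without A29, SE 0.22, limma adjusted p = 0.000290). Fkbp4 was at 137 to 167 TPM in wild-type, with 107 TPM in A25, 87.7 TPM in A30, 64.4 TPM in A31 and 176 TPM in A29, below wild-type in the 3 and above it in A29. With A29 included their changes were 1.03 (SE 0.43) for Serpinh1 and -0.84 (SE 0.27) for Fkbp4 (limma adjusted p = 0.142 and 0.206). The other 7 that rose in both scalings were Bag2, Cct3, Cct8, Hyou1, Pfdn4, Ptges3 and Sec63. Hsf1, which encodes heat shock factor 1, was at 7.33 to 16.2 TPM in wild-type hearts and 10.4 to 17.3 TPM in A25, A30 and A31, which overlapped, and it fell after rescaling.

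Whether the genotype difference itself differed between heart and scWAT was tested with an interaction term over all 16 libraries. No member passed among 62 tested, and 0.0607% of all 11536 genes did; with array weights 35 passed (56.5%, against 45.6%). Without A29, 20 members passed (32.3%, against 24.6% of all genes). Of these, 19 had a larger knockout minus wild-type difference in heart (30.6% of members, against 22.4% of all genes). After rescaling without A29, 14 passed (22.6%, against 23.6% of all genes), 6 of them larger in heart (9.68%, against 10.8%). As deposited, with A29 kept and A30 left out of scWAT, 1 passed, and the all-gene share of that fit is not given here. The 7 that passed without A29 with the same sign in both scalings were Hsp90aa1, Hspa1b, Hspa13, Hspb1, Hspb11 and Dnajc24, larger in heart, and Dnajc28, lower in heart. For Hspb1 the interaction was 1.97 as deposited (SE 0.44, limma adjusted p = 0.00495) and 1.46 after rescaling (limma adjusted p = 0.0270), with a higher mean in heart and a lower one in scWAT among libraries labelled knockout. Hspa1a, higher without overlap in scWAT and past the threshold in heart without A29, did not pass (1.60, SE 0.69, limma adjusted p = 0.103).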

How the data were processed

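RNA was measured in 16 libraries from 11 mice, read from the mouse numbers in the labels (5 wild-type, 6 labelled knockout); 5 mice, of which 4 wild-type, gave both tissues. Per the labels' protocols, Trizol served for extraction and TruSeq chemistry for the libraries. TPM values per gene symbol were deposited by the authors, 1 file a library; quantifier, genome build and annotation: not given in the sources used here. Each library's TPM sums to 1000000 and keeps no trace of depth, which is therefore unknown, and counting errors cannot be stated.

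Genes averaging 1 TPM or more over the compared libraries (within a tissue), in either tissue (between tissues) or in both tissues (interaction) were tested on log2(TPM + 1), with a pseudocount of 1, by limma 3.58.1 (R 4.3.3) with a mean-variance trend, two-sided, and Benjamini-Hochberg adjustment over all genes at 0.05. A fold change on this scale understates the change of low genes. The median of all tested genes was subtracted from heart log2 fold changes. Each comparison used its own groups, and the interaction used all 16 libraries. The fits were run on simulated data with large planted changes and independent normal scatter. Those data held no library like A29 and no shift of all genes, so they do not bear on either. No 2 libraries held identical values. Symbols were matched to the RefSeq promoter table and to GENCODE vM21 transcripts.

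Members and lists were chosen with earlier results of these data known. Statistics were planned for members past the threshold (the 12 of largest change per direction where more pass), otherwise for the 4 of smallest p per direction. They were also planned for the 4 most abundant per tissue, for both inducible lists, and for up to 4 partners per direction. Not all of these are printed. In heart, Hspb2, Hspb8, Hspb11, Dnajb4, Dnajc24 and Hspa4 were added after their values were seen. Alternatives were other pseudocounts (0.25 and 5), no filter or 5 TPM, median-of-ratios scaling, removal of mitochondrially encoded genes, array weights, each library left out and, where mice gave both tissues, the mouse as a block. The fits that combine A29 left out with another change, and the immediate early covariate, were chosen after seeing the data. Mice sharing both tissues pair those libraries by design, so the block is given with the sensitivity values.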

Additional observations from a re-analysis of the deposited data

Results flagged for a closer look

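Among 190 groups of 4 or 5 libraries (1 member in 1 group), 18 held a library far from the others (9.47%). The nominal rate of about 1 in 20 groups holds for independent normal values. Members share the same libraries, so these groups are not independent and no excess over that rate can be stated. The gap of that library to its neighbour exceeded Dixon's 95% critical value, 0.829 of the range for 4 libraries and 0.710 for 5.

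A29 accounted for 7 of the 18. Among the hearts labelled knockout it was low for the cochaperones Dnaja2 (95.5 TPM), Dnajb6 (27.8 TPM), Dnajc1 (8.09 TPM) and Dnajc2 (8.51 TPM), for the ER chaperone Hspa13 (4.41 TPM) and for Hspb3 (11.03 TPM), and high for Dnajc28 (21.6 TPM). In the same group A30 was high for Dnajc11 (28.7 TPM).

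Among wild-type hearts A5, the library with the highest mitochondrially encoded share (60.6%), was low for 5 members: Dnajb12 (7.75 TPM), Dnajc16 (3.71 TPM), Dnajc18 (3.40 TPM), Dnajc24 (2.51 TPM) and Hspa14 (6.44 TPM). The part of that share in these values was not tested. A7 was high for Hspb3 (10.5 TPM).

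In wild-type scWAT, A12 was low for Dnaja3 (33.1 TPM) and high for Hspb6 (74.4 TPM), A7 was high for Dnajb9 (22.5 TPM) and A5 high for Dnajc17 (17.6 TPM).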

How the results depend on the processing

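With all libraries, the count of members past the threshold in heart was 0, and 49 with array weights, 0 to 36 with each library left out (36 without A29) and 27 with A29 left out after median-of-ratios scaling. For the interaction the count of 0 became 35 with array weights, 0 to 20 with each library left out (20 without heart A29, 1 without scWAT A30) and 14 with A29 left out after rescaling; with the mouse as a block it was 0. Without A29 in heart, 34 higher became 13 after rescaling and 20 without A25 as well, and 2 lower became 14 after rescaling, 5 with the immediate early covariate and 1 without A7, A25 or A31 as well. In wild-type tissues, 9 higher in heart became 37 after rescaling and 30 without mitochondrially encoded genes, and 40 lower became 15 and 22. Over all genes, rescaling moved the share higher from 8.55% to 32.7% and the share lower from 77.7% to 33.4%. With the mouse as a block 49 members passed (estimated correlation) or 54 (fixed block of 4 mice), against 49. The all-gene shares without mitochondrially encoded genes and with the block are not given here. In scWAT the count was 0 under all 19 alternatives. Changes near 0 turned sign: Hspd1 in scWAT, relative to the median gene, was at 0.0039 with a pseudocount of 5, 0.012 with no filter, 0.025 with the 5 TPM filter and -0.10 to 0.12 with each library left out; Hspd1 in heart was at 0.049 with no filter; and Hsp90ab1 in heart ranged from -0.07 to 0.14 with each library left out (-0.071 without A25). The cause was not tested. TPM files hold no depth, so the precision of low members such as Hspa1a, Hspb3 and Dnajc6 rests on 3 to 5 libraries per group.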
